A study of Mus musculus with 5 samples.

Results

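Some stretches of the adult mouse heart genome carried Tbx3, Nkx2-5 and Gata4 regions packed close together. Chromatin immunoprecipitation with sequencing (ChIP-seq) had given 1 list of occupied regions for each factor, and regions of the 3 lists were joined wherever the gap between them was 10 kb or less (build mm9, chromosomes 1 to 19, starts from 3.1 Mb). Of the 12032 joined domains, 217 held 5 or more regions in all with at least 1 of each list, and these are called shared dense domains here. They make up 1.8% of the domains and hold 1593 of 21483 regions (7.42%). The domains were chosen by the measured positions of the regions alone, so their number, their region counts and the presence of each factor are descriptions and not findings.

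The series has 5 libraries of whole adult heart on the FVB/N strain background. The Tbx3 list comes from hearts of genotype Myh6-MCM;CAG-CAT-TBX3 and antibody A-20, the Nkx2-5 list from wild-type hearts and antibody N-19, and the Gata4 list from wild-type hearts and antibody C-20. A Tbx3-antibody control in Myh6-MCM hearts and a p300 library were not analysed here. Myh6-MCM is known as an inducible Cre recombinase under the Myh6 promoter, which is active in cardiomyocytes, and CAG-CAT-TBX3 as a TBX3 transgene that Cre switches on. The Tbx3 list therefore describes hearts with added TBX3, and factor and genotype cannot be told apart. Labels do not say how many animals went into a library. With 1 library per factor there is no replicate check and no test between animals. The 95% intervals below are exact binomial (Clopper-Pearson) intervals, which cover counting error only and treat neighbouring regions as if they were independent. The lists give positions only, so the depth behind a region and its enrichment are unknown.

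Nkx2-5 is a homeodomain factor, Gata4 a zinc-finger factor, and both activate genes of cardiomyocytes. Tbx3 is a T-box repressor that keeps working-muscle genes low in the conduction system, and T-box factors are known to act on cardiac genes together with Nkx2-5 and Gata4. Genes with high or cell-type-specific expression are often served by several regulatory elements in a row, each bound by a mixture of such factors. Genes inside or beside the domains are not named, and no sequence of a region is shown, because a genome and annotation of build mm9 were not used here.

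The median length of a shared dense domain was 11.8 kb (quartiles 6.05 and 17.5 kb), with a range from 0.372 to 65.4 kb. Together the domains spanned 2.95 Mb, of which 225 kb (7.63%) lay inside listed regions. The median number of regions was 7, with 65 domains at the minimum of 5, 41 with 6 regions, 40 with 7 and 71 with 8 or more. Just outside the rule stood 106 domains with 4 regions of all 3 factors, with a median length of 4.37 kb, against 7.62 kb for the 65 domains with exactly 5. Another 155 domains held exactly 1 region of each factor.

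**Figure D1:**
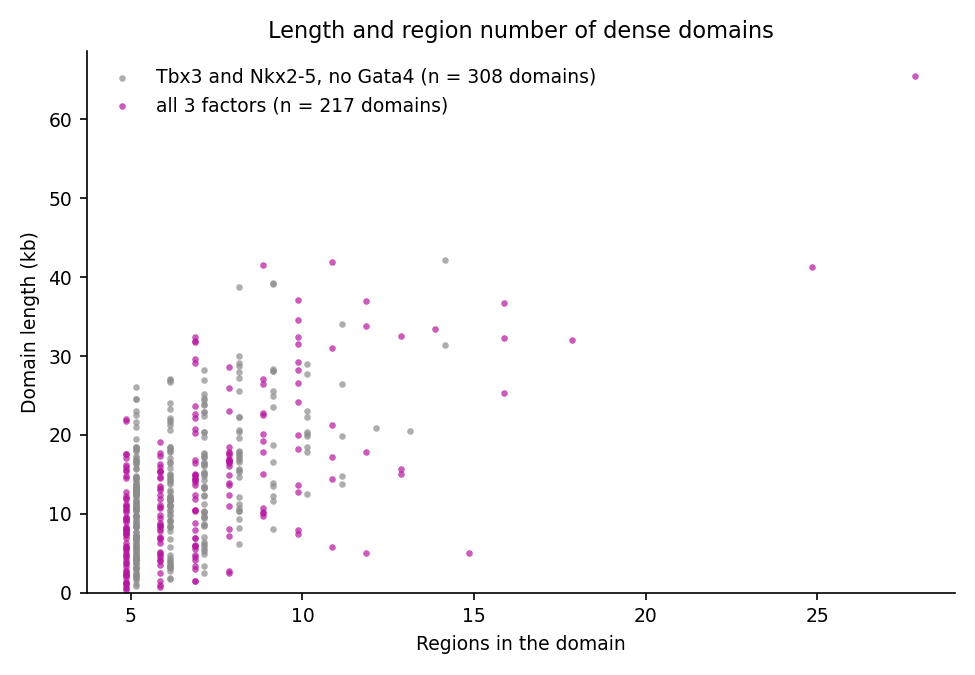
Length (kb) of each dense domain against its number of regions, with 1 point per domain, shifted slightly sideways by set. The 217 domains with all 3 factors reach 28 regions and 65.4 kb, and the 308 domains with Tbx3 and Nkx2-5 but no Gata4 reach 14 regions and 42.2 kb.

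Most domains with 5 or more regions held Tbx3 and Nkx2-5, and a minority also held Gata4. Of the 570 such domains, 217 (38.1%) held all 3 factors, 308 (54.0%) Tbx3 and Nkx2-5 only, 31 Tbx3 only, 10 Tbx3 and Gata4, and 4 Nkx2-5 and Gata4. The 308 domains without Gata4 are the closest comparison, since they meet the same region count and hold the other 2 factors. They had a median of 6 regions and a median length of 12.8 kb (quartiles 8.29 and 17.9 kb). At equal region number the shared dense domains were the shorter ones up to 9 regions, for example 7.62 against 10.4 kb at 5 regions, 8.85 against 11.8 kb at 6 and 16.7 against 17.4 kb at 8. At 10 or more regions they were the longer ones, 26.6 kb (35 domains) against 20.5 kb (19 domains). This open class is not matched in region number, as shared dense domains reach 28 regions and the others 14. Region number counts Gata4 regions here, many of which overlap another list. In the 135 shared dense domains with 5 or more Tbx3 and Nkx2-5 regions, median length with Gata4 regions left out was 15.0 kb. It was 12.8 kb in the domains without Gata4, and both sets had a median of 6 Tbx3 and Nkx2-5 regions. Their upper ends differ, since 1 shared dense domain holds 19 Tbx3 and 8 Nkx2-5 regions and the other set stops at 14. Gata4 regions also took part in joining the former, so these lengths are not matched in full. The order of lengths thus depends on how region number is matched, and it has no test.

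Tbx3 was the most frequent factor in these domains, as in the lists as a whole, and Gata4 the least. The domains held 727 Tbx3, 545 Nkx2-5 and 321 Gata4 regions, on average 3.35, 2.51 and 1.48 per domain. The rule requires 1 region of each, so the make-up beyond that is the freer measure. Of the further regions, 54.1% were Tbx3, 34.8% Nkx2-5 and 11.0% Gata4, beside 61.4%, 30.7% and 7.96% of all regions. The 104 further Gata4 regions are unevenly spread, as a domain on chromosome 4 holds 12 Gata4 regions and one on chromosome 2 holds 6. As a share of each list, the domains took in 5.52% of Tbx3 regions (5.13 to 5.92%), 8.27% of Nkx2-5 regions (7.61 to 8.96%) and 18.8% of Gata4 regions (16.9 to 20.7%). Gata4 has the shortest list, and a domain must hold 1 of its regions, so these shares are set in part by the rule.

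Most of the domains rested on a single Gata4 region. Exactly 146 of 217 (67.3%) held 1 Gata4 region, 53 held 2 and 18 held 3 or more. A single Nkx2-5 region was found in 49 domains and a single Tbx3 region in 23. Only 48 domains (22.1%) held at least 2 regions of every factor, so the presence of all 3 hung on 1 region of some factor in the other 169. The commonest make-ups were 2 Tbx3, 2 Nkx2-5 and 1 Gata4 (24 domains) and 3 Tbx3, 1 Nkx2-5 and 1 Gata4 (24 domains). Gata4 was the most frequent factor in 8 domains, on chromosomes 2, 4, 7, 10, 13 (2 domains), 15 and 16.

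The part of Nkx2-5 was compared between dense domains with and without Gata4. Nkx2-5 regions outnumbered Tbx3 regions in 54 of the 217 domains, Tbx3 led in 116 and the factors were level in 47. The 135 shared dense domains that hold 5 or more Tbx3 and Nkx2-5 regions together were set beside the 308 without Gata4. Both sets had a median of 6 such regions, though the former reach higher numbers. Nkx2-5 made up 42.0% of these regions (38.9 to 45.2%) with Gata4 present and 36.6% (34.4 to 38.7%) without. Nkx2-5 led in 36 of the 135 domains (26.7%, 19.4 to 35.0%) and in 45 of the 308 (14.6%, 10.9 to 19.1%). Without domains that hold a region of 400 bp or more, the shares of led domains were 24.3% (16.8 to 33.2%) and 14.8% (10.8 to 19.5%), and Nkx2-5 made up 41.7% (38.2 to 45.2%) and 36.7% (34.4 to 39.0%) of the regions, both with overlapping intervals. The difference has no test, as regions and domains are not replicates.

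Joining overlapping regions of any list gave 1075 separate sites, a median of 4 per domain (quartiles 3 and 6, at most 21). Several regions of a dense domain were thus often 1 place seen in several lists. Only 94 of the 217 domains (43.3%, 36.6 to 50.2%) held 5 or more separate sites, 68 held 3 or fewer and 13 held 1 or 2. Of the sites, 688 (64.0%) carried 1 factor and 387 (36.0%, 33.1 to 39.0%) carried 2 or 3. Over all joined domains 15.7% of sites carried 2 or more factors, and in the dense domains without Gata4 26.4% did (24.2 to 28.6%). The last set has regions of only 2 lists by construction. Counting Tbx3 with Nkx2-5 alone, with or without Gata4, 271 of the 1075 sites (25.2%, 22.6 to 27.9%) carried both, and that interval overlaps the one without Gata4. The 1075 sites include 96 of Gata4 on its own, which cannot carry both. The other set has no such sites by construction, so the bases of these shares differ.

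Tbx3 on its own was the commonest kind of site. It made up 412 of the 1075 sites (38.3%), Nkx2-5 on its own 180 (16.7%) and Gata4 on its own 96 (8.93%). Among sites of several factors, Tbx3 with Nkx2-5 came first with 171 (15.9%), followed by all 3 factors with 100 (9.30%), Nkx2-5 with Gata4 with 87 (8.09%) and Tbx3 with Gata4 with 29 (2.70%). Over all joined domains, sites of all 3 factors were 1.15%. In the 190 domains without a region of 400 bp or more the order was kept, with 9.01% of sites carrying all 3 factors and 2.86% Tbx3 with Gata4.

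**Figure D2:**
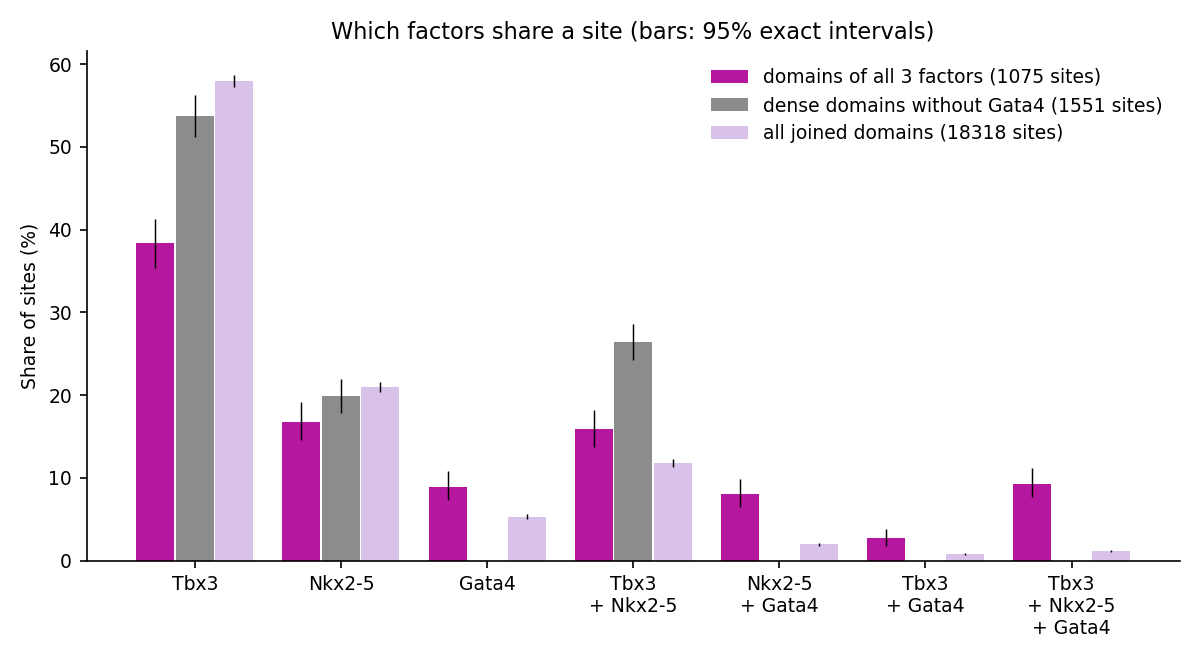
Share of sites (%) by the factors they carry, where a site is a set of regions that overlap, with 95% exact intervals. In shared dense domains Tbx3 on its own leads with 38.3% of 1075 sites, and Gata4 shares a site with Nkx2-5 (8.09%) more often than with Tbx3 (2.70%).

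Gata4 met Nkx2-5 more often than Tbx3 inside these domains. Of their 321 Gata4 regions, 192 (59.8%, 54.2 to 65.2%) overlapped an Nkx2-5 region by at least 1 bp, beside 33.5% of all 1710 autosomal Gata4 regions. Overlap with Tbx3 was 131 (40.8%, 35.4 to 46.4%), beside 21.1%, overlap with both at once was 98 (30.5%, 25.5 to 35.9%), beside 11.5%, and overlap with either was 225 (70.1%, 64.8 to 75.1%), beside 43.1%. A domain that must hold the other factors favours such overlaps, so the distance from the whole list is not read as a result. Within the domains the comparison of sites is still shaped by the rule. A site that carries every factor meets the demand for each list by itself and adds to the region count. The rule thus favours Gata4 at sites with both other factors, and the shares inside the domains are given as a description. Gata4 was present at 87 of 267 sites with Nkx2-5 and no Tbx3 (32.6%, 27.0 to 38.6%), at 100 of 271 sites with both (36.9%, 31.1 to 42.9%) and at 29 of 441 sites with Tbx3 and no Nkx2-5 (6.58%, 4.45 to 9.31%). The intervals of the first and second share overlap, and both lie above that of the third. Over all domains, which include the shared dense ones, the shares were 8.61%, 8.91% and 1.42%. Shared dense domains supply 100 of the 211 Gata4 sites behind the second value, so these shares are no separate check.

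Seen from the other lists, 189 of 545 Nkx2-5 regions (34.7%) overlapped Gata4, beside 8.65% of all Nkx2-5 regions, 365 (67.0%) overlapped either list, beside 41.7%, and 98 (18.0%) both, beside 3.03%. For the 727 Tbx3 regions the counts were 133 with Gata4 (18.3%), beside 2.75%, 315 with either (43.3%), beside 19.4%, and 99 with both (13.6%), beside 1.53%. These shares follow in part from the rule and are given as a description.

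Domain by domain, Gata4 regions overlapped both other factors in 88 of the 217, Nkx2-5 alone in 62 and Tbx3 alone in 23. In 44 domains (20.3%, 15.1 to 26.2%) no Gata4 region touched another factor's region. In 31 of these an Nkx2-5 region still overlapped a Tbx3 region, and in the other 13 no region overlapped one of another list. The 96 Gata4 regions that overlapped neither list lay a median of 2154 bp from the nearest Tbx3 or Nkx2-5 region (quartiles 412.5 and 4498 bp). Of these, 37 lay within 1 kb of one and 20 over 5 kb away. Tbx3 was the nearer factor for 51 and Nkx2-5 for 45. The domain counts are not set beside those of domains with fewer regions, so they only describe the shared dense domains.

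At least 1 base common to regions of all 3 factors was found in 81 of the 217 domains (37.3%, 30.9 to 44.1%), at 90 sites. The common stretch was 104 bp long at the median (quartiles 58.3 and 149 bp), from 2 to 1907 bp. Without the 2 domains that hold regions over 1 kb, the median was 101 bp and the longest 258 bp. Only 8 domains had 2 or more such sites. In the other 136 domains the 3 factors shared the neighbourhood but no base. The share of 37.3% is not set beside the 261 domains of all 3 factors with 3 or 4 regions. It is therefore not read as particular to dense domains.

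The share of Nkx2-5 regions that overlap Tbx3 was set side by side for dense domains with and without Gata4. In shared dense domains 274 of 545 Nkx2-5 regions overlapped Tbx3 (50.3%, 46.0 to 54.6%), and in dense domains without Gata4 414 of 722 did (57.3%, 53.6 to 61.0%), beside 36.1% of all Nkx2-5 regions. In the 135 domains with 5 or more Tbx3 and Nkx2-5 regions the share was 50% (45.0 to 55.0%). The intervals for all 545 regions and for the domains without Gata4 overlap, and the difference of -7.07 percentage points (with Gata4 minus without) has no test. It was -3.24 points with joining gaps of 20 kb and -7.90 points with gaps of 5 kb. Overlapping intervals do not show that the shares are equal. At least 1 such overlap occurred in 82.0% of shared dense domains (76.3 to 86.9%) and 85.7% of those without Gata4 (81.3 to 89.4%). Conversely, 38.7% of Tbx3 regions in shared dense domains overlapped Nkx2-5, beside 33.4% in dense domains without Gata4 and 18.2% of all Tbx3 regions.

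Neighbouring sites stood a few kb apart. The median gap between them was 2466.5 bp (quartiles 688 and 5224 bp, 858 gaps), and in dense domains without Gata4 2075 bp (564 and 5233 bp, 1243 gaps). Gaps under 500 bp were 19.7% of all (17.1 to 22.5%) and 23.1% (20.8 to 25.5%) in these sets, and gaps of 5 to 10 kb were 26.3% and 26.2%. The curves of both sets ran close together, and no gap could exceed 10 kb by the rule.

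**Figure D3:**
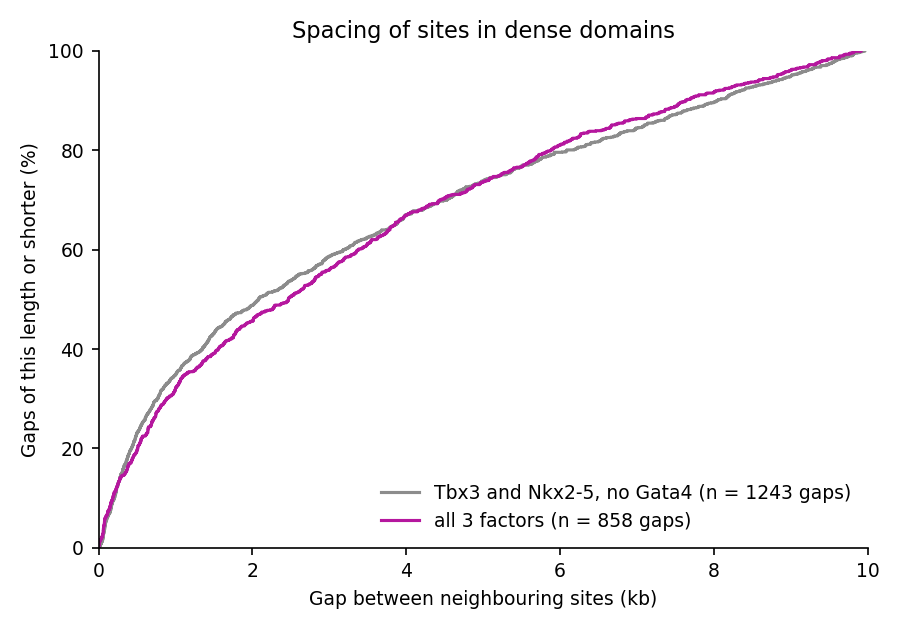
Share of gaps (%) at or below a given length (kb) between neighbouring sites, for the 858 gaps of shared dense domains and the 1243 gaps of dense domains without Gata4. The medians lie at 2466.5 and 2075 bp, and gaps under 2 kb make up 45.6% and 48.8%.

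Gata4 stood at the ends of a domain and inside it at shares whose intervals overlap. In the 204 domains with 3 or more sites, Gata4 was present at 123 of 408 end sites (30.1%, 25.7 to 34.9%) and 170 of 642 inner sites (26.5%, 23.1 to 30.1%). Tbx3 stood at 69.4% of end and 63.4% of inner sites, and Nkx2-5 at 47.5% of end and 49.8% of inner sites. The middle 50% of the domain length, at least 25% from either end, held 34.9% of Gata4 regions (29.5 to 40.6%), 33.4% of Tbx3 regions (29.9 to 37.0%) and 36.4% of Nkx2-5 regions (32.3 to 40.7%). By construction every domain begins and ends with a region.

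Median region width was larger in shared dense domains than for regions alone in a domain, most of all for Nkx2-5. Median width was 165 bp for Nkx2-5 in the domains (quartiles 125 and 228 bp), 152 bp in dense domains without Gata4 and 131 bp where the region was alone in its domain. For Gata4 the median was 162 bp in the domains (128 and 220 bp) and 142 bp alone, and for Tbx3 155 bp (122 and 209 bp), 151 bp without Gata4 and 141 bp alone. Regions that overlap another list were the wider ones in these domains, with medians of 188 bp for Nkx2-5, 177 bp for Gata4 and 170 bp for Tbx3, while regions on their own had medians of 137, 145 and 149 bp. Outside the shared dense domains the medians were 156, 158 and 166 bp for overlapping regions and 133, 141 and 143 bp for regions on their own. The quartile ranges of all these sets overlap, and width stands in for no measured signal height. In the 135 shared dense domains with 5 or more Tbx3 and Nkx2-5 regions, medians were 163 bp for Nkx2-5 and 156 bp for Tbx3. In dense domains without Gata4 they were 152 and 151 bp. Leaving out domains with a region of 400 bp or more removes wide regions by construction. Medians were then 155 and 154 bp in 115 of these shared dense domains, and 152 and 150 bp in 277 without Gata4. The sets thus came closer for Nkx2-5, and little changed for Tbx3.

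**Figure D4:**
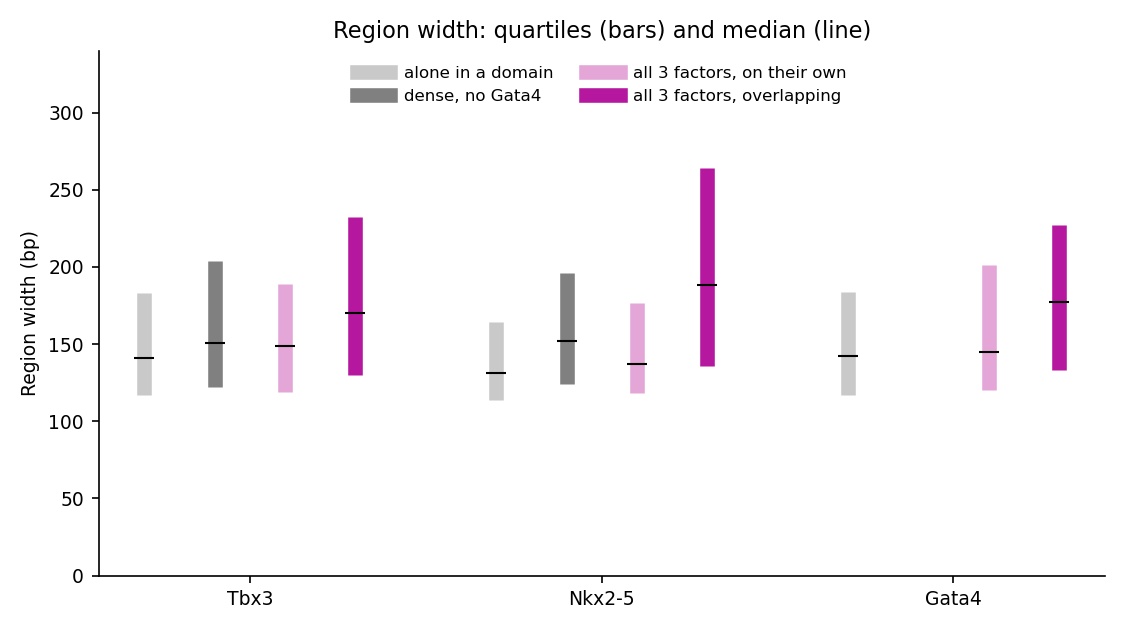
Region width (bp) by factor, with bars from the lower to the upper quartile and a line at the median. For Nkx2-5 the medians run from 131 bp for regions alone in a domain to 188 bp for overlapping regions of shared dense domains, with overlapping bars. Gata4 has no bar for dense domains without Gata4.

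A pair of domains stood apart from all others by the width of their regions. On chromosome 17, from 39979939 to 39985782, 11 regions covered 92.2% of 5.84 kb, the widest of 3390 bp. On chromosome 2, from 98502390 to 98507490, 15 regions covered 51.7% of 5.10 kb, the widest of 1072 bp. In every other shared dense domain the widest region was 579 bp or less. The pair supplies 5 of the 90 sites with a base common to all 3 factors. Whether its regions reflect factor occupancy was not tested, and the control library was not analysed here.

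The 12 domains with the most regions held 199 regions between them and differed in which factor led. Tbx3 was the most frequent factor in 5, Nkx2-5 in 3 and Gata4 in 2, with a tie in 2. A stretch common to all 3 factors occurred in 9 of the 12. The last place was taken from 4 domains tied at 12 regions, by number of Gata4 regions and then position. Of the 11 above the tie, Nkx2-5 led in 2 and a common stretch occurred in 8, and of the 4 in the tie Tbx3 led in 3 and a common stretch occurred in 2. The 3 without one lay on chromosome 1, chromosome 4 (the domain rich in Gata4) and chromosome 5 (122951953 to 122977304).

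**Figure D5:**
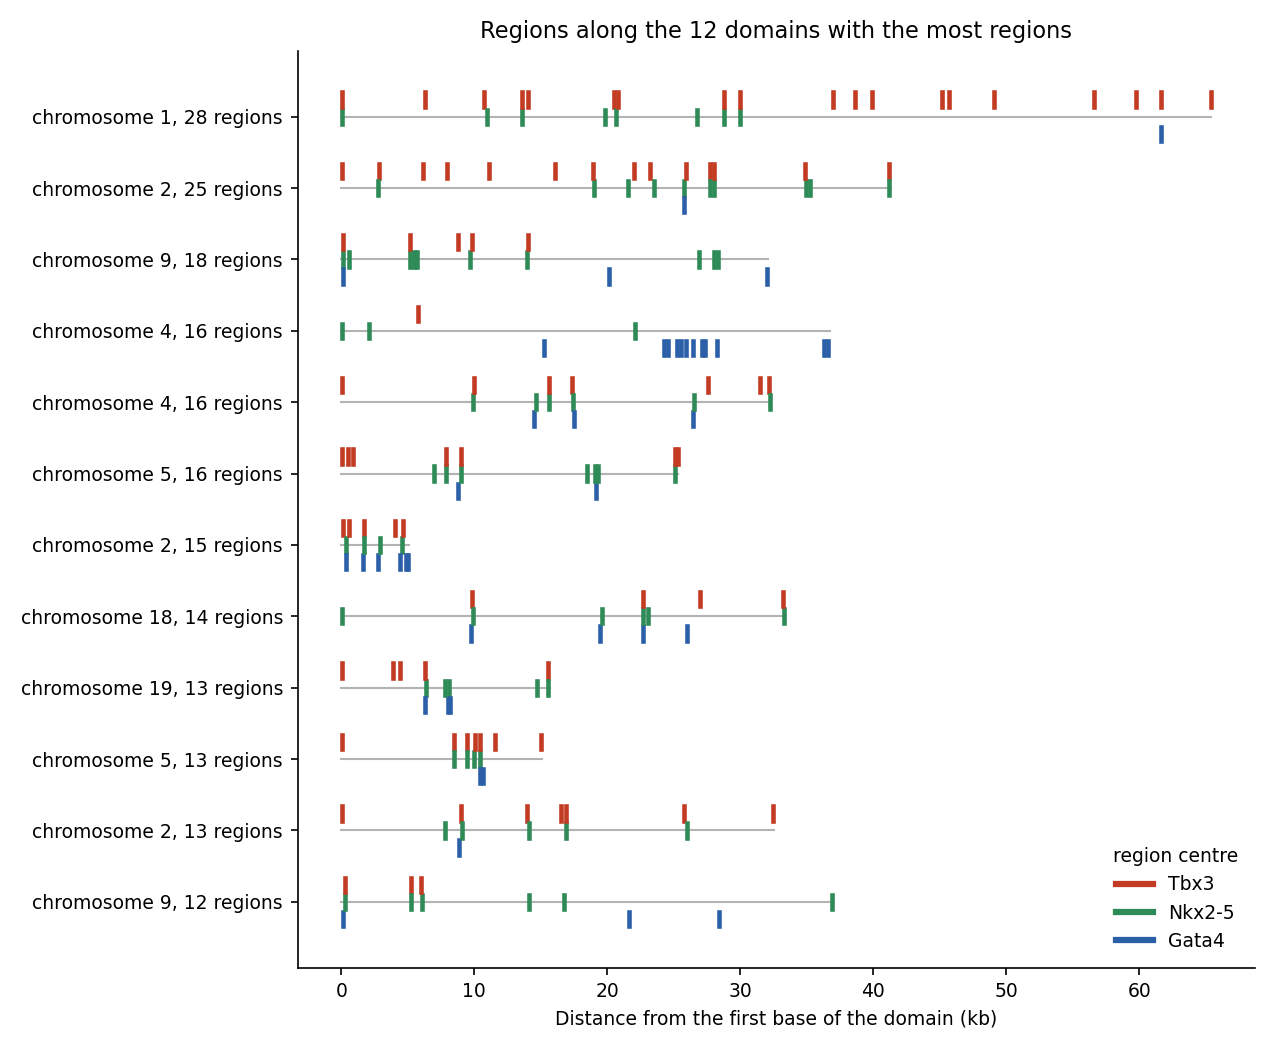
Positions of region centres along the 12 domains with the most regions, in kb from the first base of each domain, with Tbx3 above, Nkx2-5 on and Gata4 below the line. The chromosome 1 domain has 19 Tbx3 regions over 65.4 kb and 1 Gata4 region near its end, whereas 12 Gata4 regions crowd a chromosome 4 domain that has 1 Tbx3 region.

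The domain with the most regions was also the richest in Tbx3 (chr1:74034606-74100022). Its 28 regions, at 21 sites, were split 19 to 8 to 1 among Tbx3, Nkx2-5 and Gata4. The last Nkx2-5 region began 29.9 kb from the first base, and 5 of the 8 Nkx2-5 regions fell on a Tbx3 region. Beyond them stood Tbx3 regions and the single Gata4 region of 118 bp, which lay inside the widest Tbx3 region of the domain, of 435 bp (74095999 to 74096433). All 3 factors were thus in this domain without a place where Gata4 and Nkx2-5 met.

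The domain next in region number (chr2:167651278-167692591) also had a single Gata4 region, but with a common point. Its 25 regions formed 17 sites over 41.3 kb, of which 7 carried 2 or more factors. The Gata4 region, of 114 bp, overlapped an Nkx2-5 region of 123 bp and a Tbx3 region of 312 bp, with 105 bp in common (167677038 to 167677142).

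The third domain by region number was led by Nkx2-5, with 10 of 18 regions (chr9:119378821-119410884). All 3 factors met at its first site, where a Tbx3 region of 166 bp (119378888 to 119379053) lay wholly inside a Gata4 region of 235 bp and an Nkx2-5 region of 295 bp. The last Tbx3 region began 13.9 kb from the first base. The sites after it, from 20.1 to 32.0 kb, held Nkx2-5 or Gata4 and never both.

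The domain with the most Gata4 regions had no overlap between lists (chr4:147337917-147374645). Its 16 regions stood at 16 sites over 36.7 kb, and 12 of them were Gata4. A run of 9 Gata4 regions, 136 to 402 bp wide with gaps of 1 kb or less, filled 4.33 kb (147362080 to 147366406). The single Tbx3 region, of 224 bp, lay at 147343566 to 147343789, between the second Nkx2-5 region and the first Gata4 region. A last pair of Gata4 regions of 154 and 249 bp closed the domain.

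The other chromosome 4 domain of 16 regions (chr4:45470549-45502834) was mixed at 5 of its 10 sites. At its sixth site the common stretch of all 3 factors was 106 bp (45487911 to 45488016). A Gata4 region of 103 bp met Nkx2-5 alone at the seventh site, and another of 160 bp stood on its own.

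In the chromosome 5 domain of 16 regions (chr5:122951953-122977304) Gata4 and Tbx3 did not meet. Its first 3 sites, which began within 0.809 kb, were Tbx3 on its own. A Gata4 region of 381 bp (122970918 to 122971298) overlapped Nkx2-5 regions of 133 and 150 bp and no Tbx3 region, and the other Gata4 region, of 117 bp, overlapped none.

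Sites of all 3 factors stood in the remaining large domains. On chromosome 18 (24997525 to 25030972) 4 Tbx3, 6 Nkx2-5 and 4 Gata4 regions formed 9 sites, and all 3 factors shared 48 bp at one site and 177 bp at another. On chromosome 19 (40436827 to 40452493) 5 Tbx3, 5 Nkx2-5 and 3 Gata4 regions formed 8 sites over 15.7 kb, with 148 bp in common where the Gata4 region lay wholly inside the other factors' regions. On chromosome 5 (123576222 to 123591329) 4 sites in a row carried Tbx3 and Nkx2-5, the first beginning 8.37 kb and the last 10.4 kb from the first base, and Gata4 joined the last of them with 87 bp in common. The domains on chromosome 2 (157939701 to 157972262) and chromosome 9 (48531734 to 48568748) shared 145 and 78 bp among all 3 factors at 1 site each.

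Beyond the largest domains, sites common to all 3 factors repeated within a few. On chromosome 7 (119799678 to 119806909) 242 and 52 bp were shared, on chromosome 17 (5994706 to 5998100) 83 and 193 bp, and on chromosome 8 (35088936 to 35103803) 2 and 258 bp. The 2 bp of the last example depend on the exact edges of the regions. On chromosome 15 (74915967 to 74917469) 4 Gata4 regions, 2 Nkx2-5 regions and 1 Tbx3 region were packed into 1.503 kb, with 164 bp common to all.

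The 4 longest domains held 0.216 to 0.605 regions per kb, beside a median of 0.565 over all shared dense domains, and the 4 densest had 1 to 3 sites. The longest were the domains of 28 and 25 regions on chromosomes 1 and 2 and those on chromosome 4 (46066687 to 46108616), with 11 regions in 41.9 kb, and chromosome 2 (31919365 to 31960937), with 9 regions in 41.6 kb and a median gap of 7569 bp. The most regions per kb came from domains under 1 kb. On chromosome 5 (147072561 to 147072932) 1 Tbx3 region of 358 bp overlapped 2 Nkx2-5 and 2 Gata4 regions within 0.372 kb, a single site. On chromosome 19 (56452953 to 56453657) 2 regions of each factor lay within 0.705 kb without a base common to all 3. Another on chromosome 19 (43827465 to 43828051) packed a pair each of Tbx3 and Nkx2-5 regions and 1 Gata4 region into 0.587 kb, and one on chromosome 1 (74341932 to 74342632) the same make-up in 0.701 kb.

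Some shared dense domains followed each other along a chromosome. Of the 217, 28 had another within 100 kb, in 12 runs, and the median distance to the nearest other was 1517 kb. Runs of 3 domains occurred on chromosome 3 (101304307 to 101408823, 7 Tbx3, 8 Nkx2-5 and 7 Gata4 regions), chromosome 12 (88141887 to 88237619, 16, 7 and 3) and chromosome 19, at 40436827 to 40573949 (16, 8 and 6) and at 53722660 to 53876791 (13, 9 and 4). The chromosome 3 run was the most even in its factors.

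By chromosome, shared dense domains were 0.452% of joined domains on chromosome 14 (2 of 442, 0.0548 to 1.62%) and 3.39% on chromosome 19 (13 of 384, 1.81 to 5.72%), the lowest and highest values, beside 1.8% overall. Chromosome 8 had the largest number, 22 of 701 (3.14%, 1.98 to 4.71%), and chromosome 6 had 5 of 652 (0.767%, 0.249 to 1.78%). Chromosome 3 held 12 shared dense domains but 4 without Gata4, whereas chromosome 4 held 12 and 31. The interval left out the overall value on chromosomes 6, 8, 14 and 19, though only narrowly on 6 and 19, and held it on the other autosomes. No allowance was made for the 19 intervals looked at, and neighbouring domains are not independent, so no chromosome is read as different.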

How the data were processed

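The region lists deposited by the authors hold chromosome, start and end in bp (BED positions on mm9, per the submitters' processing notes), another kind of value than counts, with no score. Libraries were made with an Illumina kit per the labels. No source used here gives the aligner, peak caller, threshold or use of the control. Depth is unknown. Of the listed 13242 Tbx3, 6705 Nkx2-5 and 1756 Gata4 regions, 62, 112 and 46 lay outside chromosomes 1 to 19 from 3.1 Mb and were left out. Joining, sites and overlaps (at least 1 bp) were computed in Python 3.11.15 with scipy 1.17.1 for exact intervals, and the code was tested on simulated data with planted domains. Printed positions count from 1. Named domains are the 12 with the most regions, the 6 with the most Gata4 regions, the 6 with the most common sites, the 4 longest and the 4 densest. Ties at the last place (4 domains with 12 regions, 13 with 3 Gata4 regions, 7 with 2 common sites) were broken by Gata4 regions for the first list and total regions for the others, then position. The members and lists were chosen with earlier results of these data known. Planned gene counts, gene lists and motif shares in regions were not run, as they need a genome or annotation of mm9. Alternatives varied the gap, the minimum, list length, wide regions and the overlap rule.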

Additional observations from a re-analysis of the deposited data

How the results depend on the processing

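A value counts as moved when a number of domains differs by more than 1.5 times, or when another value leaves the 95% interval of the reported one (for differences of shares, by more than the half-width of the first share's interval). Only the differences of region width, of Nkx2-5 on Tbx3 and of end sites have a direction, and none of these changed sign. Of 54 alternatives, 24 moved by the measure above. The 30 others include sizeable shifts, such as 323 domains with at least 4 regions, 59 domains with a common place (reported: 81) for an overlap of 50% of the shorter region, and -3.24 points (reported: -7.07) for Nkx2-5 on Tbx3 at gaps of 20 kb. The number of domains, 217, fell to 134 with gaps of 5 kb, 71 with at least 8 regions, 94 with at least 5 separate sites, 50 with the wider 50% of each list and 20 with each list cut to the length of the shortest, and rose to 349 with gaps of 20 kb. Of the 217, 133 still lay in such a domain at 5 kb and 217 at 20 kb. The value at 20 kb was fixed in advance, because a wider gap only joins domains further. The share of dense domains holding all 3 factors, 38.1%, was 31.3% with at least 4 regions, 43.6% with 6, 51.8% with 8, 30.8% with 5 separate sites and 55.6% with lists of equal length. The last share rests on only 36 dense domains, of which 20 held all 3. The median length, 11.8 kb, was 5.49 kb at gaps of 5 kb, 27.5 kb at 20 kb, 8.80, 14.5 and 17.9 kb with at least 4, 6 and 8 regions, 17.8 kb with 5 separate sites and 9.85 kb with lists of equal length. Overlap of Gata4 with either factor, 70.1%, was 59.8% for an overlap of 50% of the shorter region, 76.6% for centres within 500 bp, 79.7% at gaps of 5 kb and 63.7% at 20 kb. The median gap was 3374 bp when regions within 500 bp were merged. The excess of Gata4 at end sites, 3.67 percentage points, was 8.86 at gaps of 5 kb. Gaps and minimum counts change which domains exist, and shorter lists have fewer regions to join. For other moves the cause was not tested. The alternatives of region width, of Nkx2-5 on Tbx3 and of end sites were chosen after seeing the data. Motif and gene alternatives were not run. No paired analysis was possible because each factor has 1 library, and leaving out replicates was not possible either. Without depth, list lengths cannot be set against each other.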
